A study of Mus musculus with 5 samples.

Results

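The comparison set whole-lung RNA of SM22-rtTA mice on doxycycline against that of SM22-tet-BMPR2delx4+ mice that received none. Its members were chosen by sample title, 2 of the 5 arrays in the study, and every gene measured in either pool was compared by its log2 ratio after the arrays had been scaled to a common median. The SM22-rtTA mice carry the doxycycline-dependent transactivator and, by title, no mutant receptor, and their right ventricular pressure was 30 ± 3 mmHg. The SM22-tet-BMPR2delx4+ mice carry the inducible mutant receptor as well, were left uninduced, and had the same pressure of 30 ± 3 mmHg. The other 3 pools serve here as reference levels only. They were wild-type FVB/N mice, 8 weeks old (30 ± 3 mmHg), FVB/N mice of the same age that had spent 4 weeks in hypoxia (50 ± 8 mmHg), and SM22-tet-BMPR2delx4+ mice on doxycycline (50 ± 8 mmHg). In the titles of the 3 transgenic pools, 8 weeks may stand for age or for treatment, and the kind of error on the pressures is not stated.

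Each condition was 1 array of RNA pooled from several animals, whose number is not given. No difference below therefore has a replicate check or a test, and precision is limited by the number of arrays. The compared pools differ in genotype and in doxycycline at once. The sex of the pooled animals is not given, and the X-linked transcript Xist differed between the pools. Effects of the drug, of the receptor transgene without its inducer, of breeding line, of sex and of sampling therefore cannot be told apart. The SM22 promoter, that of the smooth muscle gene Tagln, directs the transactivator to smooth muscle, whereas the RNA came from all cells of the lung. In such bulk RNA, fewer cells of a type and less RNA per cell cannot be told apart.

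BMPR2 is a type 2 receptor for bone morphogenetic proteins (BMPs), which signals through SMAD transcription factors, and its loss of function underlies heritable pulmonary arterial hypertension. The reverse tetracycline transactivator rtTA binds its operator only in the presence of doxycycline, so animals with the activator alone on the drug, and animals with both elements off the drug, are the usual controls of such a system. Whole lung also holds leukocytes, airway epithelium and vascular muscle, and its transcripts follow the hormonal and circadian state of the animal at the time of sampling.

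Of 12393 genes named on the array, 7245 were above the noise floor in at least 1 of the compared pools and are called measured here. This floor lay at 276 on the scaled intensity axis. Anything dimmer was set to it, so that a fold against a floored pool is a lower limit, written as at least. A gene was counted as higher or lower in SM22-rtTA where the pools were at least 1.5-fold apart. By this rule 258 genes were higher (3.56% of those measured) and 387 were lower (5.34%), which made 645 in all (8.9%). The lower genes included regulators of the glucocorticoid response, clock output genes, chaperones, neutrophil transcripts and contractile genes of smooth muscle. The higher genes included B lymphocyte transcripts and ligands and receptors of vessel and stroma.

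Most of these differences were small. Of the 645 genes, 539 lay between 1.5- and 2-fold, and 18 were over 3-fold apart, 8 of them higher and 10 lower. At 2-fold, 42 genes were higher (0.58%) and 64 were lower (0.883%). For 45 of the higher and 46 of the lower genes the other pool was at the floor. The SD of the log2 ratio over the 6478 genes above the floor in both pools was 0.34, and the median over measured genes was -0.05. Because the median lay slightly under 0 at every intensity (between -0.06 and -0.05 in 5 equal groups of genes by level), the split of calls moves with the centring. With the intensity trend removed, 328 genes were higher and 288 lower, so that the higher genes made up 53.2% of calls in place of 40%.

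Different probe sets of a gene give the only repeat measurement on these arrays. Of the called genes, 224 had another probe set above the floor, which pointed the same way throughout for 143 and the opposite way at least once for 81. Another probe set was also past 1.5-fold in the same direction for 62 of them. Among genes at least 2-fold apart, 29 had another probe set, which was past 1.5-fold in the same direction for 17 and was opposite in sign for 7. In 1947 genes with a pair of probe sets above the floor in both pools, the log2 ratios of the pair differed with an SD of 0.49, and 23.4% of pairs lay more than 1.5-fold apart. A single gene just past 1.5-fold is thus within the range by which probe sets of 1 gene disagreed.

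**Figure D1:**
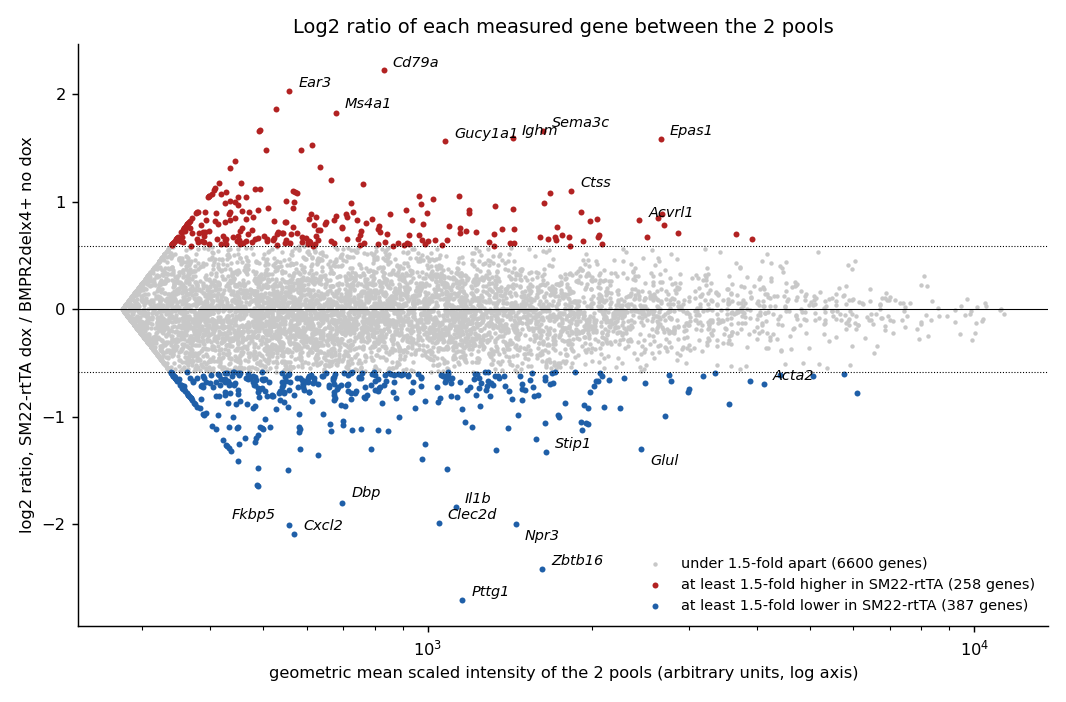
Log2 ratio of SM22-rtTA on doxycycline over uninduced BMPR2delx4+ (y axis) against the geometric mean scaled intensity of both pools (x axis, arbitrary units, log axis) for the 7245 measured genes, 1 point a gene. Red points are the 258 genes at least 1.5-fold higher and blue points the 387 at least 1.5-fold lower, and the dotted lines mark 1.5-fold. The diagonal edges on the left are genes with 1 pool at the noise floor. Cd79a stands highest at 2.22 and Pttg1 lowest at -2.70.

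Both arrays held bright transcripts of lung. Surfactant protein C (Sftpc) was at 11160 in SM22-rtTA and 11528 in the uninduced pool, and the club cell secretoglobin Scgb1a1 was at 11188 and 11200. Both genes lay at the top of the intensity range of the arrays, where close values say little about how alike the pools were. The numbers of genes above the floor were 6820 and 6903. The endothelial cadherin Cdh5 was at 4724 and 4415. Some reference pools held transcripts of other tissues, and their levels must be read with that in view. The 15 proximal tubule genes on the array summed to 80032 in wild type against 17438 and 17975 in the compared pools, and the 32 skeletal muscle genes summed to 117261 in induced BMPR2delx4+ against 9619 and 12344.

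Where the called genes stood among all 5 pools was counted next. Of the 387 lower genes, SM22-rtTA alone lay outside the range of the other 4 pools for 136, the uninduced pool alone for 106, both for 55 and neither for 90. Of the 258 higher genes these numbers were 154, 55, 27 and 22. By these counts SM22-rtTA was more often the one apart among the higher genes, and both patterns were common among the lower ones. Calling a gene on the difference between these pools favours an outermost place for either of them. The counts were not set beside those of uncalled genes. A pool at the floor together with another cannot lie outside the range, so the floor also shapes the split. Both BMPR2delx4+ pools lay on the same side of the other 3 pools for 231 of the lower and 105 of the higher genes, with a gap of at least 1.5-fold between the sides for 63 and 12 of them. Calling a gene requires a difference between those sides and so favours such a split. Among measured genes that were not called, 34.3% of those below 0 and 23.5% of those above 0 were split in the same way, beside 59.7% and 40.7% of the called ones.

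Glucocorticoid-responsive genes included some of the lowest ratios in SM22-rtTA. Glucocorticoids bind a nuclear receptor that switches on a set of genes across tissues, lung included. Of 26 measured genes on this list 9 were lower and 0 were higher, and 21 lay below 0, with a median log2 ratio of -0.36 against -0.05 over all measured genes. The share of lower members was 34.6%, beside 5.34% of all measured genes. Zbtb16, a zinc finger transcription factor strongly induced by glucocorticoids, was at 700 in SM22-rtTA, 3737 in uninduced BMPR2delx4+, 2773 in wild type, 3251 in induced BMPR2delx4+ and 1827 in hypoxia. SM22-rtTA was the low pool for it, 5.34-fold under the uninduced pool, with all other pools well above. Fkbp5, a co-chaperone that restrains the glucocorticoid receptor, was at 279 in SM22-rtTA, next to the floor, against 1117, 1280, 838 and 667 in the other pools in the same order. Glutamine synthetase (Glul) was at 1568 against 3854, 4225, 3329 and 3203. For Fkbp5 and Glul SM22-rtTA alone lay outside the range of the others, and for Zbtb16 both compared pools did, at opposite ends. For these 3 genes another probe set also pointed down, past 1.5-fold for Fkbp5 and Glul.

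Other members of the list followed a different pattern over the pools. Map3k6, a stress-activated kinase, was at the floor in SM22-rtTA and at 863 in the uninduced pool, at least 3.13-fold apart, but at 359 in wild type, 426 in induced BMPR2delx4+ and 321 in hypoxia. Angptl4, a secreted inhibitor of lipoprotein lipase, was at 1327 against 2741 in the uninduced pool, with 1599, 1515 and 1789 in the others. For both, the uninduced pool stood farther from the remaining pools than SM22-rtTA did. Pdk4, which restrains pyruvate dehydrogenase, was at 315 against 741, with 736 in wild type, 1425 in induced BMPR2delx4+ and 474 in hypoxia. The metallothioneins Mt1 (1577 against 2583) and Mt2 (1205 against 2103) were lower too, with hypoxia below SM22-rtTA for both (1362 and 1097). Several classical targets did not pass 1.5-fold. Tsc22d3, the glucocorticoid-induced leucine zipper, had a log2 ratio of -0.52 (2993 against 4306), while the kinase Sgk1 was at 3331 against 3018 and the phosphatase Dusp1 at 5784 against 6344. Angptl4, Tsc22d3 and the genes named after Tsc22d3 were chosen after their values were seen.

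Circadian clock and output genes were lower in 6 of 16 measured members and higher in 0, with a median log2 ratio of -0.38 and 13 below 0, so that 37.5% were called lower beside 5.34% overall. In the clock, CLOCK and BMAL1 drive the Per and Cry repressors and the output factors Dbp, Tef and Hlf, which share a leucine zipper DNA-binding domain, so that the level of each depends on the hour. Dbp was at 373 in SM22-rtTA, 1302 in uninduced BMPR2delx4+, 2349 in wild type, 1228 in induced BMPR2delx4+ and 791 in hypoxia. The gap between the compared pools was 3.49-fold, and SM22-rtTA was the lowest of the 5. Tef was at 1348 against 2808, with 3182, 3332 and 2079 in the others in the order above. Nr1d2, the nuclear receptor REV-ERB beta, which represses clock genes, was at 1225 against 2463, with 2425, 2826 and 1647. Both were lowest in SM22-rtTA and next lowest in hypoxia, although a second, dimmer probe set of each had the opposite sign. The repressor Per3 was at the floor in SM22-rtTA and in hypoxia, and at 668 in the uninduced pool, 427 in wild type and 778 in induced BMPR2delx4+, at least 2.42-fold between the compared pools. The deubiquitinase Usp2 was at the floor against 431, and the repressor Cry2 at 577 against 881. With the mean of a gene's probe sets in place of the brightest, 2 of the 16 clock genes were lower.

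Of the other 10 clock genes, 7 also lay below 0 without passing 1.5-fold. Per1 was at 1826 in SM22-rtTA and 1694 in the uninduced pool, Clock at 616 and 624, Cry1 at 379 and 368, and Nr1d1 at 1327 and 1606, the last with a log2 ratio of -0.28. Hlf, with Dbp and Tef in the output arm, had a log2 ratio of -0.44 with SM22-rtTA at the floor, which is a bound. These genes outside the 6 called were chosen after their values were seen. The hour at which lungs were taken is not given in the sources used here, and its part in these values was not tested.

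Heat shock and chaperone genes were lower in 9 of 34 measured members and higher in 0, with a median log2 ratio of -0.29 and 26 below 0. The share called lower was 26.5%, beside 5.34% of all measured genes. Chaperones of this group fold client proteins, and many are induced by the heat shock factor HSF1. Stip1, the adaptor that joins HSP70 to HSP90, was at 1038 in SM22-rtTA, 2603 in uninduced BMPR2delx4+, 1822 in wild type, 1852 in induced BMPR2delx4+ and 1520 in hypoxia. It was lowest in SM22-rtTA and highest in the uninduced pool, 2.51-fold apart. Hsph1 (HSP110), a nucleotide exchange factor of HSP70, was at 1035 against 2397, with 1559, 1401 and 672 in the others, so that hypoxia lay lower still. The inducible HSP70 gene Hspa1b was at 2618 against 4820, with 6567, 4040 and 2019. The small chaperone Hspb1 was at 4659 against 7976, the lowest and the highest of the 5 pools. Hspe1, the mitochondrial HSP10, was at 1164 against 1956, with 2638 in wild type and 778 in hypoxia. Hspa4, another HSP110-type gene, was at 1317 against 2410, but its 2 other probe sets had the opposite sign.

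The cold-inducible RNA-binding protein Cirbp, counted with the RNA processing genes below, was higher in SM22-rtTA, at 740 against 435. It was at 367 in wild type, 469 in induced BMPR2delx4+ and 519 in hypoxia. Its level in SM22-rtTA was above that of all other pools. The part of temperature in these values was not tested. The other 25 chaperone genes did not pass 1.5-fold. Constitutive Hspa8 was at 5726 against 6090, the HSP90 gene Hsp90aa1 at 4384 against 5640, and the HSP40 gene Dnajb1 at 1077 against 911. Genes of the unfolded protein response in the endoplasmic reticulum had a median of -0.30 with 22 of 24 below 0. Past 1.5-fold, 2 were lower (8.33%) and 1 was higher (4.17%), beside 5.34% and 3.56% of all measured genes. Manf, a secreted factor of that response, was at 1417 against 2625, with the other pools between 1467 and 1636, so that the uninduced pool was the one apart. Sel1l, a subunit of the degradation machinery, was higher at 1772 against 1057.

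**Figure D2:**
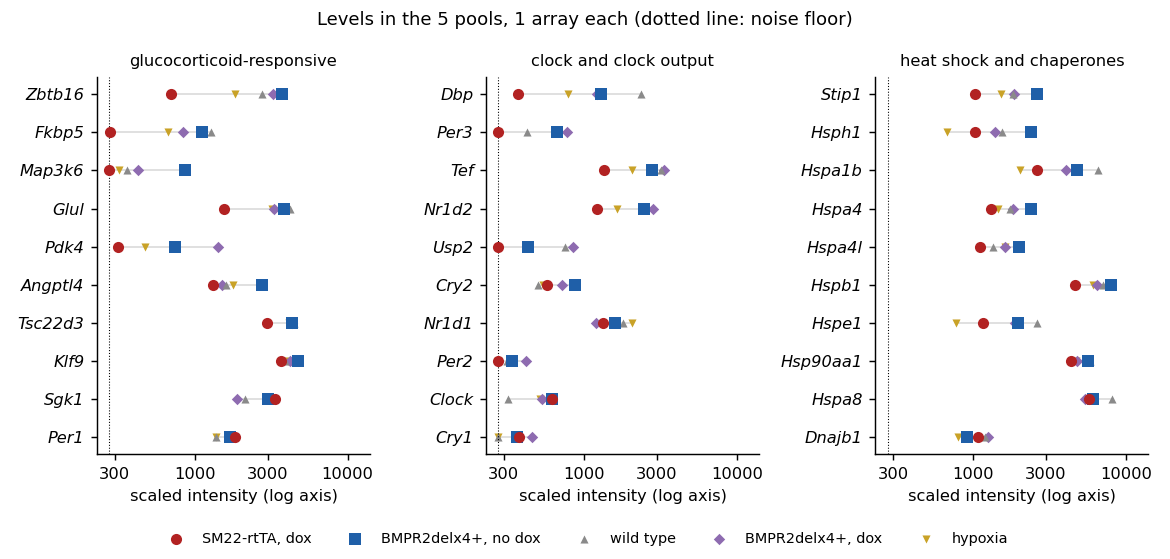
Scaled intensity (x axis, log axis) of glucocorticoid-responsive, clock and heat shock genes in each of the 5 pools, 1 array a pool, with the noise floor of 276 dotted. SM22-rtTA (red) lies lowest of the 5 for Zbtb16, Fkbp5, Dbp and Stip1, while for Map3k6 and Angptl4 the uninduced BMPR2delx4+ pool (blue) stands above the rest. Genes at the bottom of each panel, such as Sgk1, Clock and Dnajb1, had similar levels in both.

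Promoter sequence was examined for these 3 groups because each had several lower members and a known regulatory motif. Windows from 250 bases before to 50 after each annotated start were taken from RefSeq on GRCm38.p6 and searched on both strands. A gene can have several windows, and genes of the lists without one were left out, so the counts are over 30 of 34 chaperone, 13 of 16 clock and 23 of 26 glucocorticoid-responsive genes. The motifs were the heat shock element (GAA, TTC and GAA, each 2 bases apart), the E-box of CLOCK and BMAL1 (CACGTG), the D-box of Dbp, Tef and Hlf (TTATGTAA), and the palindromic glucocorticoid response element (GNACA and TGTNC, 3 bases apart). Among 32851 windows the heat shock element occurred in 0.603%, and among genes of its list it was in 2 of 9 called lower (Hsph1 and Hspe1) and 3 of 21 not past 1.5-fold. The E-box occurred in 7.15% of windows, in 1 of 6 clock genes called lower (Tef) and 2 of 7 that were not (Cry1 and Per1). The D-box occurred in 0.938% of windows, in 1 of the 6 (Per3) and 0 of the 7. The glucocorticoid response element occurred in 0.475%, in 2 of 7 called lower (Map3k6 and Mt1) and 1 of 16 that were not (Sgk1). The windows shown are 1 example of each motif among the lower genes, read 5′ to 3′ along the gene, with the match in capitals. A match describes these letters only.
Hsph1: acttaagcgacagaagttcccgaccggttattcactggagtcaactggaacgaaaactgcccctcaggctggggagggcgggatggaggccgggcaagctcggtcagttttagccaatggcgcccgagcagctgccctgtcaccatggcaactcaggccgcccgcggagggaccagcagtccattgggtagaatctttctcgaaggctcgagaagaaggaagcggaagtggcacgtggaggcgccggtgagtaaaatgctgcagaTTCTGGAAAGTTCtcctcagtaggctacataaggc
Tef: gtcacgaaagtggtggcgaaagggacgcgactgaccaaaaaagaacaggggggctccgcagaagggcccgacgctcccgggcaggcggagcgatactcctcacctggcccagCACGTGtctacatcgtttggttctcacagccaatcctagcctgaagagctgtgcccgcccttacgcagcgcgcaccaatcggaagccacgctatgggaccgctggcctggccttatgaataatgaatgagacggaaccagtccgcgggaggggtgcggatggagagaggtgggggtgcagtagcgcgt
Per3: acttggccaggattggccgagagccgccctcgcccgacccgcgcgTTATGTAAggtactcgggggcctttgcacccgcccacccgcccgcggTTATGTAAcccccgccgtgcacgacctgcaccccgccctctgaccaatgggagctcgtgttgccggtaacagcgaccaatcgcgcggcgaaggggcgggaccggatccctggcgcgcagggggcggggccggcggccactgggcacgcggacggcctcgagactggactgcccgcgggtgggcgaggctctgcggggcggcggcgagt
Map3k6: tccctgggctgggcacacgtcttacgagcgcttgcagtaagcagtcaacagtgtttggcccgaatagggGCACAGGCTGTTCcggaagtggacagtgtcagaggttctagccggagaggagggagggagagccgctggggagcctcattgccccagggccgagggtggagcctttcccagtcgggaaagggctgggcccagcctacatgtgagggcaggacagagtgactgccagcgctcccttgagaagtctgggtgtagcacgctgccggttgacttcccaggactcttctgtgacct

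The Hsph1 window (chr5:149636266-149636565, minus strand) holds the heat shock element on the opposite strand, 15 bases past the start. In Tef (chr15:81811164-81811463, plus strand) the E-box begins at -138 from the start. In Per3 (chr4:151044616-151044915, minus strand) the D-box occurs as a pair, at -205 and -158. In Map3k6 (chr4:133240568-133240867, plus strand) the match to the glucocorticoid response element begins at -181.

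Transcripts of RNA processing were lower in 6 of 29 members (20.7%) and higher in 1, Cirbp (3.45%), with a median of -0.26. Over all measured genes these shares were 5.34% and 3.56%. The nuclear long non-coding RNA Malat1 was at the floor in SM22-rtTA against 860 in the uninduced pool, at least 3.11-fold, with 1240 in wild type, 1870 in induced BMPR2delx4+ and 1679 in hypoxia. SM22-rtTA was the only pool at the floor for it, and 2 other probe sets of Malat1 were also past 1.5-fold downwards. The kinases Clk1 (929 against 1614) and Clk4 (328 against 606), which phosphorylate splicing factors, were lower as well. The related nuclear RNA Neat1 had a log2 ratio of -0.50, at 4083 against 5760.

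Neutrophil markers were lower in SM22-rtTA in 8 of 20 measured members and higher in 1, with a median of -0.48 and 16 below 0. The share of lower members was 40%, beside 5.34% of all measured genes. Interleukin 1 beta (Il1b), an inflammatory cytokine of myeloid cells, was at 594 in SM22-rtTA, 2126 in uninduced BMPR2delx4+, 562 in induced BMPR2delx4+ and 693 in hypoxia, and at the floor in wild type. The uninduced pool was the one apart, 3.58-fold above SM22-rtTA. The chemokine Cxcl2, which recruits neutrophils, is counted with the cytokines below and not on this list. It was at 1176 in the uninduced pool and at the floor in the other 4, a difference of at least 4.26-fold. Clec4d, a lectin receptor of neutrophils and monocytes, was at 393 against 1006 and at most 320 elsewhere. The calprotectin subunits, abundant in neutrophil cytoplasm, were at 4672 against 7119 (S100a8) and 4095 against 6283 (S100a9). They were at the floor in wild type, at 2174 and 1675 in induced BMPR2delx4+ and at 1720 and 1020 in hypoxia, so both compared pools were above the rest. Summed over the 30 neutrophil genes on the array, scaled intensity was 27236 in SM22-rtTA, 36683 in the uninduced pool, 14537 in wild type, 20656 in induced BMPR2delx4+ and 23503 in hypoxia. The receptor for bacterial lipopolysaccharide Cd14 is counted with the macrophage and monocyte markers below. It was at 1134 against 2361, again with the uninduced pool highest of the 5. Chil3, a chitinase-like protein of alveolar macrophages and neutrophils, went the other way, at 1011 against 439. With the noise floor at the 70th percentile, 4 of 20 neutrophil genes were lower and the list median was 0.

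Contractile genes of smooth muscle, the cell type to which the SM22 promoter directs the transactivator, were lower in 6 of 21 members and higher in 1, with a median of -0.29 and 16 below 0. The share called lower was 28.6%, beside 5.34% of all measured genes. Calponin (Cnn1), an actin-binding regulator of contraction, was at 572 in SM22-rtTA, 1254 in uninduced BMPR2delx4+, 322 in wild type, 1346 in induced BMPR2delx4+ and 451 in hypoxia. Both BMPR2delx4+ pools were thus high and the other 3 low, with a gap of 2.19-fold between SM22-rtTA and the uninduced pool. Smooth muscle myosin heavy chain (Myh11) was at 1151 against 1924, with 1063, 2094 and 1236 in the others. Smooth muscle actin (Acta2) was at 3238 against 5233, with 2711, 5655 and 3719. These 2 genes repeated the same order, the pair of BMPR2delx4+ pools above the other 3. Desmin (Des) was at 968 against 1520 and beta-tropomyosin (Tpm2) at 1620 against 2579. The sixth lower member was Hspb1, which is also a chaperone. With the mean of a gene's probe sets, 2 contractile genes were lower and 2 higher.

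Tagln itself, whose promoter drives the transgene, was not past 1.5-fold, at 2768 against 3633, a log2 ratio of -0.39, with 2222, 3915 and 2941 in the other pools in the same order. Myosin light chain kinase (Mylk, 3083 against 3123), vinculin (Vcl, 2656 against 2625) and Tpm1 (2444 against 2241) were near equal. The member that was higher was integrin alpha 8 (Itga8), at 2610 against 1392, with 554 in induced BMPR2delx4+. It is also a marker of lung fibroblasts and pericytes. Skeletal muscle transcripts were lower in 3 of 16 members (18.75%, beside 5.34% of all measured genes) and higher in 1 (6.25%), with a median of -0.22. The higher one was Pygm, at 1225 against 758. The skeletal list summed to 28816.5 in hypoxia and 12344 in the uninduced pool, and the contractile list to 46366 and 52161. The order of these pools thus differed between the lists. Skeletal actin (Acta1) was at the floor in SM22-rtTA and in wild type. It was at 677 in the uninduced pool, 10435 in induced BMPR2delx4+ and 5063 in hypoxia. The part of such muscle in the contractile values was not tested.

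B lymphocyte genes were the clearest group in the upward direction. Of 18 measured members 9 were higher in SM22-rtTA and 0 were lower, with a median log2 ratio of 0.48. The share of higher members was 50%, beside 3.56% of all measured genes. Cd79a, a signalling chain of the B cell receptor, was at 1792 in SM22-rtTA, 385 in uninduced BMPR2delx4+, 478 in induced BMPR2delx4+ and 427 in hypoxia, and at the floor in wild type. SM22-rtTA was the one pool apart, 4.66-fold above the uninduced pool. Its partner chain Cd79b was at 844 against 302, and the surface antigen CD20 (Ms4a1) was at 1277 against 361. Neither was above 495 in any other pool. The immunoglobulin heavy chain gene Ighm was at 2482 against 825, with 1003, 1633 and 1348 in the others. Its 11 probe sets can share sequence with other immunoglobulin genes, and 1 of 3 others above the floor was opposite in sign. The lymphoid transcription factor Spib was at 568 and at the floor in all 4 other pools.

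The variable segment gene Ighv14-2, which is on no list, was at 1042 against 361. The 9 other measured B cell genes did not pass 1.5-fold. The IgA heavy chain (Igha) was at 1624 against 2178 and the joining chain of polymeric antibodies (Jchain) at 502 against 624. The B lineage factor Pax5 was at 277 against 321, both close to the floor. The log2 ratios of these genes were -0.42 (Igha), -0.31 (Jchain) and -0.21 (Pax5), and that of the plasma cell proteoglycan Sdc1 was 0.15. These members were chosen after their values were seen. With the noise floor at the 70th percentile, 5 of 18 B cell genes were higher and the list median was 0. T cell and NK cell markers were higher in 2 of 12 members (16.7%, beside 3.56% of all measured genes) and lower in 0. The higher ones were the chemokine Ccl5 at 944 against 618 and the T cell receptor chain Cd3g at 420 against the floor. Cd4 (304 against 336), Cd3e (380 against 399) and Zap70 (584 against 626) were near equal.

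Antigen presentation genes were higher in 3 of 15 members (20%, beside 3.56% of all measured genes) and lower in 0. The class 2 chaperone H2-DMb2 was at 716 against the floor, at least 2.59-fold, the class 2 chain H2-Ea at 620 against 348, and the lysosomal protease cathepsin S (Ctss), which trims the invariant chain, at 2679 against 1249. Abundant members differed little, such as the invariant chain Cd74 (8613 against 7380) and the class 1 gene H2-K1 (7463 against 7175). Macrophage and monocyte markers were higher in 5 of 27 members (18.5%, beside 3.56% of all measured genes) and lower in 2 (7.41%, near the overall 5.34%), and their median of 0.13 reached 0 with the 70th percentile floor. Cd14, named above, was among the lower ones (1134 against 2361). Higher were the mannose receptor Mrc1 (704 against 368), Cd68 (513 against the floor) and the pore-forming Mpeg1 (1511 against 915). Lysozyme (Lyz2, 8623 against 8558) and the growth factor receptor Csf1r (1863 against 1922) were close in both pools. Ear3, an eosinophil-associated ribonuclease, was at 1127 in SM22-rtTA, 715 in wild type and 1037 in hypoxia, and at the floor in both BMPR2delx4+ pools.

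Among the other genes with high ratios were several ligands, receptors and regulators of vessel and stroma, a grouping made after their values were seen. Angpt1, the ligand of the endothelial receptor TIE2, was at 1006 in SM22-rtTA, at 359 in hypoxia and at the floor in the other 3 pools, a difference of at least 3.64-fold. The guidance ligand Sema3c was at 2885 in SM22-rtTA, 913 in uninduced BMPR2delx4+, 930 in wild type, 537 in induced BMPR2delx4+ and 2026 in hypoxia. Epas1, which encodes the hypoxia-inducible factor HIF-2 alpha, was at 4613 against 1542, with 2417, 1150 and 3212 in the others. For both genes SM22-rtTA was highest, hypoxia next and induced BMPR2delx4+ lowest. Gucy1a1, a subunit of the nitric oxide receptor guanylate cyclase, was at 1847 against 626, with 751, 392 and 1164, and its second probe set had a log2 ratio of 1.37. Its partner subunit Gucy1b1 was near equal at 2160 against 1989. Among endothelial markers, 2 of 36 were higher, endomucin (Emcn, 1390 against 670) and the mesenchymal and endothelial transcription factor Foxf1 (2302 against 1161), and 2 were lower, the lymphatic receptor Lyve1 (1231 against 2434) and endothelial nitric oxide synthase (Nos3, 334 against 523). The endothelial median was -0.04, and its shares of calls (5.56% each way) were near those of all measured genes. Fibroblast markers had a median of 0.33 with 2 of 17 higher (11.8%, beside 3.56% of all measured genes) and 0 lower. The higher ones were fibulin 1 (Fbln1, 1642 against 790) and lumican (Lum, 435 against the floor). The fibroblast median was 0.03 with the 70th percentile floor, where 1 was higher.

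**Figure D3:**
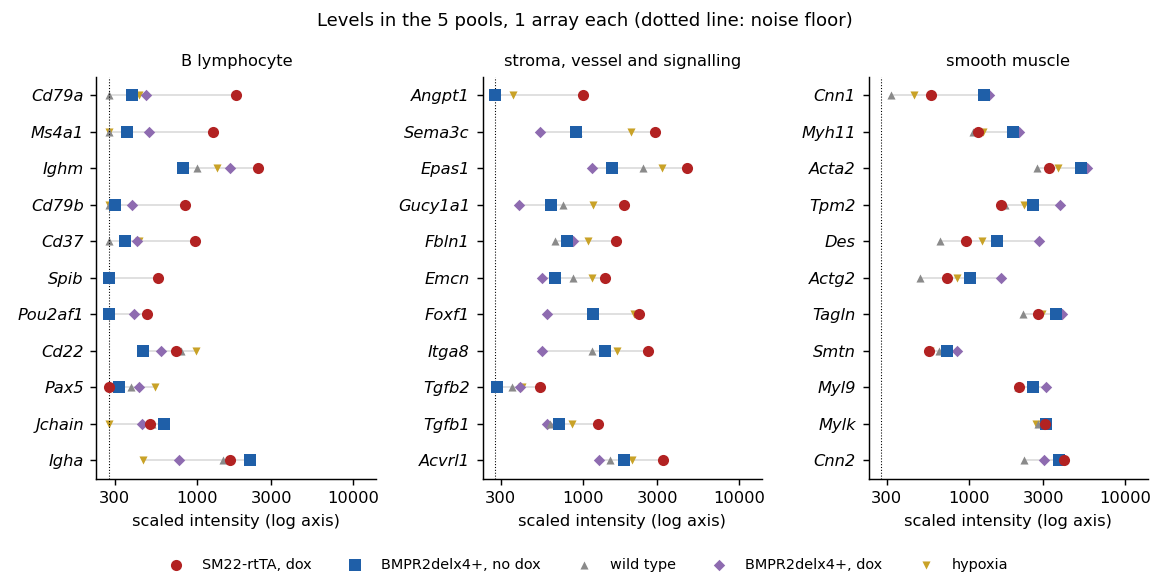
Scaled intensity (x axis, log axis) of B lymphocyte genes, of stromal, vascular and signalling genes, and of smooth muscle genes in each of the 5 pools, 1 array a pool, with the noise floor of 276 dotted. SM22-rtTA (red) stands alone at the right for Cd79a, Ms4a1 and Angpt1. For Cnn1, Myh11 and Acta2 the BMPR2delx4+ pools, uninduced (blue) and induced (purple), lie to the right of the other 3.

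The receptor pathway that the transgene targets was examined for its own members. Bmpr2 was at 357 in SM22-rtTA and at the floor in all other pools, which gives a bound of at least 1.29-fold and no call. Whether the Bmpr2 probes detect the mutant transcript is not given in the sources used here, and no check of the labels can be drawn from them. Of 27 measured BMP and TGF-beta receptors, ligands and SMADs, 4 were higher and 0 were lower, with a median of 0.08. The share of higher members was 14.8%, beside 3.56% of all measured genes. The endothelial type 1 receptor ALK1 (Acvrl1), which pairs with BMPR2, was at 3246 in SM22-rtTA, 1832 in uninduced BMPR2delx4+, 1492 in wild type, 1282 in induced BMPR2delx4+ and 2072 in hypoxia. SM22-rtTA was the highest of the 5. The ligand Tgfb1 was at 1249 against 703, with 624, 594 and 853 in the others, and Tgfb2 was at 534 against 286. The co-receptor betaglycan (Tgfbr3) was at 592 against 384. The type 1 receptor Bmpr1a (782 against 950), the co-receptor endoglin (Eng, 3865 against 4497) and the mediators Smad1 (730 against 706) and Smad4 (1756 against 2042) did not pass 1.5-fold. These last members were chosen after their values were seen.

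Of 10 measured BMP-responsive genes 0 were higher and 0 were lower, and the median was -0.01. Of all measured genes 8.9% were past 1.5-fold either way, and 0 among so few members is near that share. The direct target Id1 was at 2787 in SM22-rtTA and 2759 in the uninduced pool, Id3 was at 2192 and 2226, and the inhibitory Smad6 was at 2817 and 2640. The lowest ratios of the list were those of the decoy receptor Bambi (440 against 618) and the Notch and BMP target Hey1 (993 against 1350). Among 12 TGF-beta target genes, whose median was -0.33, 1 was lower (8.33%, beside 5.34% of all measured genes). It was the collagen cross-linking enzyme lysyl oxidase (Lox, 2206 against 3517), whose second probe set was opposite in sign.

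Several groups separated the pools little. Of 33 oxidative phosphorylation genes, 31 cytosolic ribosomal protein genes and 15 alveolar type 1 markers, 0 were past 1.5-fold in either direction. Of all measured genes 8.9% were, and 0 among 15 is near that share. The medians were 0.01 for oxidative phosphorylation, -0.05 for ribosomal proteins and 0.06 for alveolar type 1 markers. Among alveolar type 2 and surfactant genes 2 of 23 were higher (8.7%, beside 3.56% of all measured genes), with a median of 0.01. The higher ones were the transcription factors Etv5 (962 against 520) and Nkx2-1 (637 against 405). Surfactant protein A (Sftpa1, 10170 against 10038) and surfactant protein B (Sftpb, 8050 against 8648) were close. Proliferation genes had 0 calls among 15 measured members, which is also near the share of all measured genes. On the array were 39 genes of this list, 24 of them at the floor in both pools. Airway groups were further apart. Club cell and airway secretory genes were lower in 3 of 19 members (15.8%, beside 5.34% of all measured genes). In this list 17 lay below 0, and the median was -0.22. The mucin Muc5b was at the floor against 587, the antibody transporter Pigr at 407 against 700, and the secretoglobin Scgb3a1 at 3573 against 5451. Among ciliated cell genes 2 of 8 were lower (25%, beside 5.34% of all measured genes), with a list median of -0.32. The lower ones were the axonemal gene Rsph1 (at the floor against 520) and the ciliogenesis factor Foxj1 (588 against 888).

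**Figure D4:**
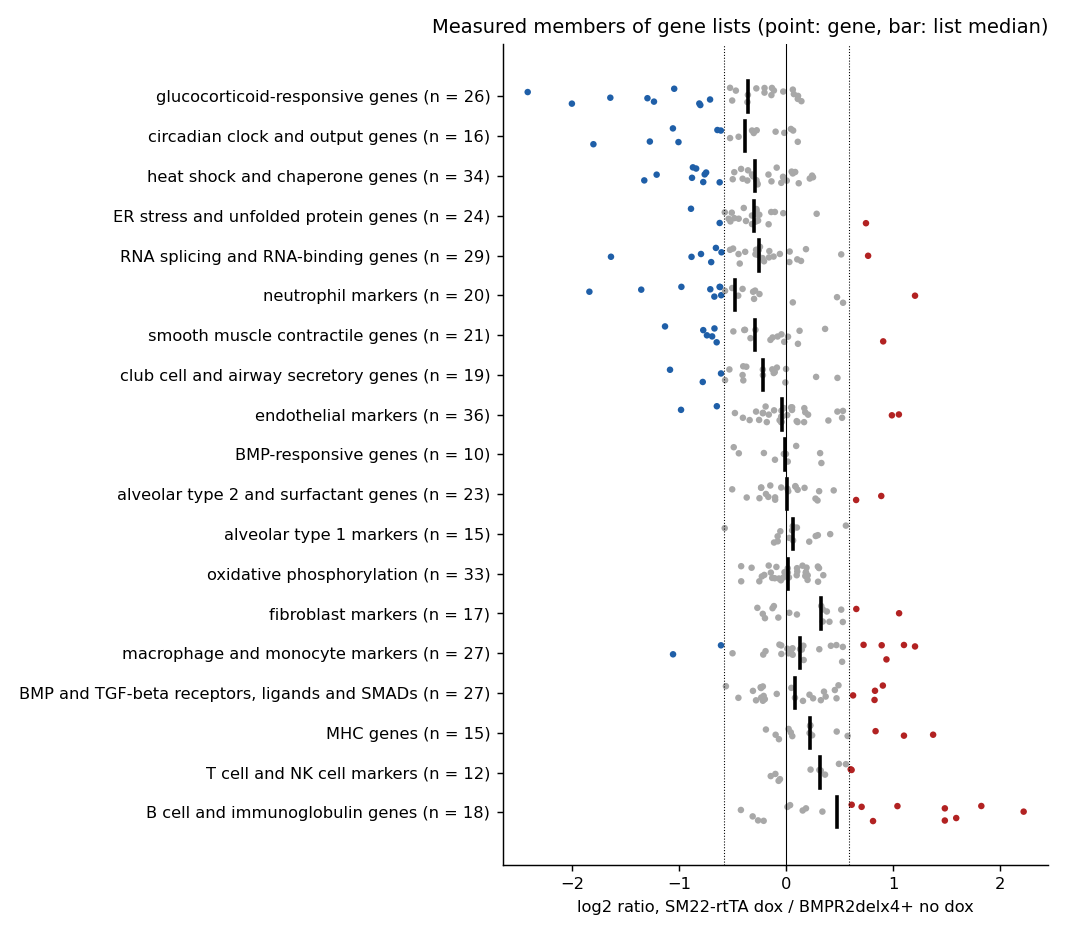
Log2 ratio of SM22-rtTA over uninduced BMPR2delx4+ (x axis) for the measured members of 19 gene lists, 1 point a gene, with a black bar at each list median and dotted lines at 1.5-fold. Blue points are at least 1.5-fold lower and red points at least 1.5-fold higher. Medians run from -0.48 for neutrophil markers to 0.48 for B cell genes, with BMP-responsive genes at -0.01.

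Metabolic groups held a few further differences. Hypoxia-inducible and glycolysis genes were lower in 5 of 26 members (19.2%, beside 5.34% of all measured genes). Among these were the glycolytic regulator Pfkfb3 (307 against 656), hexokinase 2 (Hk2, 310 against 624) and the collagen prolyl hydroxylase P4ha2 (627 against 1254). The member that was higher was Epas1. This list shares 2 measured genes with the glucocorticoid-responsive list. Antioxidant and xenobiotic genes were lower in 7 of 36 members (19.4%, beside 5.34% of all measured genes) and higher in 0. Aldehyde oxidase (Aox1, 397 against 850) had the lowest ratio. Mt1 and Mt2, already counted among the glucocorticoid-responsive genes, were also among these 7. Red cell genes were higher in 3 of 9 members (33.3%, beside 3.56% of all measured genes). The haem synthesis enzyme Alas2 was at 2638 against 1491 and bisphosphoglycerate mutase (Bpgm) at 1137 against 509. Adipose genes were higher in 4 of 18 members (22.2%, beside 3.56% of all measured genes) and lower in 1 (5.56%, beside 5.34%). Adiponectin (Adipoq) was at 811 against 453, and carbonic anhydrase 3 (Car3) was at 3533 against 1966, in both cases below wild type (1957 and 8362).

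Signalling and early-response genes outside these groups were mixed in direction. Immediate early genes had 2 of 27 higher and 2 lower (7.41% each), beside 3.56% higher and 5.34% lower among all measured genes. The growth factor-induced transcription factor Egr1 was at 1922 in SM22-rtTA, 3839 in uninduced BMPR2delx4+, 1633 in wild type, 4994 in induced BMPR2delx4+ and 2550 in hypoxia, with both BMPR2delx4+ pools highest. The stress-induced factor Atf3 was higher in SM22-rtTA, at 728 against 415, and so was Klf4, a factor of epithelial and endothelial differentiation, at 2591 against 1625, with 2508 in hypoxia. The platelet-derived growth factor ligand Pdgfa was at 2248 against 1326 and was highest in SM22-rtTA on its brightest probe set. Its second probe set was near equal, at 565 against 544. The receptor Pdgfrb of mural cells was at 871 against 1349 and was lowest in SM22-rtTA, with a second probe set of opposite sign. Among 14 WNT pathway genes, 2 were higher (14.3%, beside 3.56% of all measured genes) and 0 were lower. The higher ones were the receptors Fzd1 (464 against the floor) and Fzd2 (555 against 349). The endothelial receptor Notch4 was at 562 against 963, the 1 call among 14 Notch pathway genes (7.14%, near the overall 5.34%). S1pr3, a receptor for sphingosine 1-phosphate, was at 682 in SM22-rtTA and at most 410 in any other pool.

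Cytokines and interferon-stimulated genes were divided as well. Of 16 chemokines and cytokines, 3 were higher (18.75%) and 2, Cxcl2 and Il1b, were lower (12.5%). Over all measured genes these shares were 3.56% and 5.34%. Interleukin 18 (Il18) was at 615 against 307, with 435 in wild type, 328 in induced BMPR2delx4+ and 835 in hypoxia, and interleukin 16 (Il16) was at 616 against 389. Interferon-stimulated genes were higher in 3 of 24 members (12.5%) and lower in 2 (8.33%), beside 3.56% and 5.34% of all measured genes. The RNA sensor Ifih1 was at 757 against 487 and was highest in SM22-rtTA, and the antiviral Rsad2 was at 439 against 283. The GTPase Irgm2 was lower at 365 against 559. The interferon gamma receptor chain Ifngr2 was at 830 and at most 386 elsewhere, but its second probe set had the opposite sign.

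The remaining genes with large differences were single ones. Isl2, a homeobox transcription factor, was at 872 in SM22-rtTA and at the floor in all 4 other pools, at least 3.16-fold apart. The endosomal GTPase Rab5b was at 877 against the floor, and at most 327 elsewhere. Xanthine dehydrogenase (Xdh) was at 601 against 1585, with 355, 775 and 526 in the others, and the endothelial HSP70 relative Hspa12b was at 292 against 817, with 365, 431 and 503. For both of these the uninduced pool was the high one. Spef1, a microtubule protein of cilia, was at 330 against 932, with 318, 888 and 538. The microtubule end-binding gene Mapre2 was at 648 against 1821 on its brightest probe set, but 2 of 3 others had the opposite sign, 1 of them past 1.5-fold. The cytochrome Cyp2e1, a member of the liver list, was at 502 against 1238, with 8690 in wild type. That pool held kidney transcripts and also had the highest sums for liver, adrenal and adipose genes. The tissue behind its Cyp2e1 level was not tested.

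The genes with the largest single differences included several that followed genotype over all 5 pools. Pttg1, which encodes securin, an inhibitor of chromosome separation, was at 454 in SM22-rtTA, 2952 in uninduced BMPR2delx4+, 448 in wild type, 2073 in induced BMPR2delx4+ and 574 in hypoxia. Both BMPR2delx4+ pools were high and all others low, with 6.51-fold between the compared pools, the largest difference among genes above the floor in both. Clec2d, a ligand of inhibitory natural killer receptors, was at 526 against 2085, with 717, 1688 and 725 in the others. The transcription factor Foxo3 was at 847 against 2104, with 813, 1944 and 863. Gdap10 was at the floor in the 3 pools without the receptor transgene, and at 734 uninduced and 1119 induced. The acetyltransferase adaptor Trrap repeated the order, at 481 against 1015, with 382, 1133 and 475. These genes were picked for this pattern or for their ratio, and with 1 pool a condition, genotype, line and sampling cannot be told apart. Npr3, the clearance receptor of natriuretic peptides, did not follow genotype. It was at 725 against 2901, with 1090, 1446 and 1490 in the others, so the uninduced pool was the highest, and 2 other probe sets also lay below 0, 1 of them past 1.5-fold.

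X-linked transcripts differed as well. Xist, transcribed from the inactive X chromosome of females, was at the floor in SM22-rtTA and wild type, and at 689 in the uninduced pool, 1845 in induced BMPR2delx4+ and 1403 in hypoxia. The X-linked demethylase Kdm6a, which escapes inactivation, was at 386 against 592, with 280, 830 and 503 in the others. All 5 measured genes of that list lay below 0, and 2 of them were past 1.5-fold. The Y-linked translation factor Eif2s3y was at 394 in SM22-rtTA, 366 in the uninduced pool, 394 in wild type, 285 in induced BMPR2delx4+ and at the floor in hypoxia. The uninduced pool thus had both Xist and a Y-linked transcript above the floor, and the sex of the pooled animals is not given in the sources used here. The part of sex in the other differences was not tested.

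**Figure D5:**
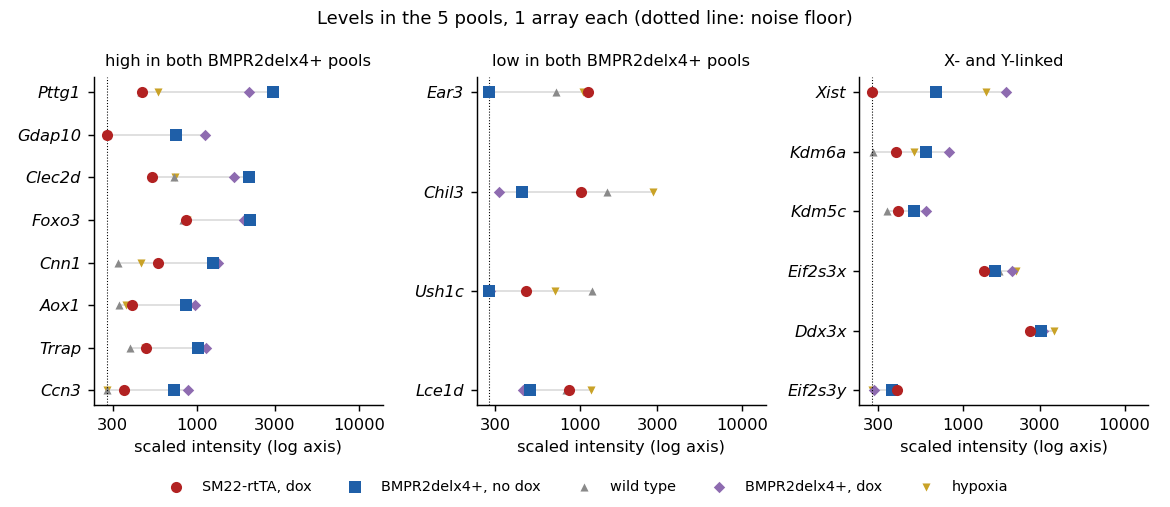
Scaled intensity (x axis, log axis) in each of the 5 pools, 1 array a pool, of genes high in both BMPR2delx4+ pools, genes low in both, and X- and Y-linked genes, with the noise floor of 276 dotted. For Pttg1 the BMPR2delx4+ pools lie at 2952 (uninduced, blue) and 2073 (induced, purple) and the other 3 between 448 and 574. Xist is at the floor in SM22-rtTA (red) and wild type (grey).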

How the data were processed

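Whole mouse lung was measured on 5 oligonucleotide arrays, 1 for each condition, each of RNA from several animals pooled together, per the labels. The deposited values were linear intensities, 1 for each of 22626 probe sets, and the algorithm by which the authors summarised and scaled them is not given in the sources used here. The lowest deposited intensity was 50, and 12.0% of the values of SM22-rtTA and 12.5% of those of uninduced BMPR2delx4+ sat at it. The medians of the deposited intensities were 284 and 270.03.

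Arrays were aligned on the log2 scale by the median of 9047 probe sets that exceeded each array's 50th percentile, with shifts of -0.11 for SM22-rtTA and -0.07 for uninduced BMPR2delx4+. The noise floor, 276, was the 50th percentile of all scaled values together. Gene names came from the platform's annotation and were brought up to date through gene IDs in RefSeq tables (GRCm38.p6). Of the probe sets 20380 had 1 gene (20351 matched by ID), 691 had several and 1555 had none listed. Each gene was represented by its brightest probe set on average, and 4956 of 12393 genes had more than 1. A gene was called at 1.5-fold. Sums of a list are over all its genes on the array, before the floor. Some lists share members, so that a gene can be counted in more than 1 of them. With 1 array a group there was no test.

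The members, the 61 gene lists and the rules were chosen with earlier results of these data known. Named genes were the 15 highest and 15 lowest called genes where neither pool was floored, leaving out predicted loci; the 5 largest bounds each way; up to 4 called members of each list, or its 2 brightest members if none was called; and Bmpr2, Tagln, Xist and Ddx3y, the last of which no named probe set measured. This gave 160 genes, 128 of them called, 45 of those with another probe set above the floor and 10 with one of opposite sign. Other genes named were chosen after their values were seen. Alternatives covered scaling, floor, fold, intensity trend and the summary of probe sets. The calling step was also run on simulated arrays with known fold changes in bright genes. Their noise was smaller than the spread of the real ratios, and all probe sets of a changed gene moved together. That run checks the computation and does not measure how reliable the calls here are. Python 3.11.15, numpy 2.4.6, pandas 2.3.3, statsmodels 0.14.6 and matplotlib 3.10.9 were used.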

Additional observations from a re-analysis of the deposited data

How the results depend on the processing

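No paired analysis was possible because each group has 1 array, and for the same reason no replicate could be left out. The count of genes apart kept within 1.5 times of the 645 found, and each direction likewise, with values as deposited (321 higher, 332 lower), a median over all probe sets (242 and 462), quantile scaling over 5 arrays (261 and 369) or 2 (268 and 390), a pseudocount of 100 in place of the floor (259 and 353), and removal of the intensity trend (328 and 288). Of the 645 genes, 579 were called again with values as deposited, 546 with the trend removed and 436 with the pseudocount. A floor at the 30th percentile gave 1002 genes (422 higher, 580 lower), and at the 70th 310 (108 and 202), since the floor sets how many dim genes count. A 2-fold limit gave 106 (42 and 64). The mean of a gene's probe sets gave 226 higher and 232 lower, and counting each probe set by itself 1455 (832 and 623). No called named gene, and no list median of at least 0.2 in size, changed sign under the settings that give 1 value a gene. Taken singly, other probe sets of 10 of the 128 named called genes had the opposite sign, among them Mapre2, Hspa4, Tef and Nr1d2.

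Of the 128 named called genes, 71 fell short of 2-fold, 49 were not called with the 70th percentile floor, 33 with the mean of probe sets, 19 with the pseudocount, 9 with the trend removed and 6 with values as deposited. The list median ranged from -0.39 to -0.22 for glucocorticoid-responsive, -0.57 to -0.18 for clock, -0.32 to -0.23 for heat shock and -0.32 to -0.24 for smooth muscle genes. With the 70th percentile floor it reached 0 for B cell, neutrophil and macrophage genes and 0.03 for fibroblast genes. With the mean of probe sets, the lower clock genes went from 6 to 2, and the smooth muscle genes from 6 lower and 1 higher to 2 of each. The 70th percentile floor thus moved the medians of the B cell, neutrophil, macrophage and fibroblast lists most. The counts of clock and smooth muscle genes depended on the summary of probe sets.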
